A study of Rattus norvegicus with 10 samples.

Results

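The contractile thin filament of the fetal rat heart was followed through 9 genes, chosen by symbol from the 18025 genes of the deposited table: the troponin I genes Tnni1, Tnni2 and Tnni3, the troponin T genes Tnnt1 and Tnnt2, the troponin C gene Tnnc1, the tropomyosin gene Tpm1 and the sarcomeric actin genes Actc1 and Acta1. Heart tissue of wild-type (wt) Sprague-Dawley fetuses at embryonic day (E) 19.5 was sequenced in 5 libraries from control dams (CON) and 5 from dams with hyperglycemia (HG), all dams 3 months old. The HG dams received streptozotocin (STZ), which destroys the insulin-producing cells of the pancreas, on 3 consecutive days and had blood glucose above 16 mM. The CON dams received the citric acid buffer alone. Messenger RNA was sequenced from stranded libraries, and values were given as FPKM, the fragments on a gene relative to the length of the gene and the size of the library. Nothing in the labels says which fetuses shared a litter, so the p-values below measure the spread between libraries only.

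Thin filaments are double strands of actin along which tropomyosin lies, with a troponin complex at regular intervals. Calcium binds troponin C, troponin I releases its hold on actin, and troponin T passes the movement on to tropomyosin, so that myosin heads can bind. Each subunit exists as isoforms encoded by different genes: Tnni1 is the slow skeletal troponin I that fetal hearts use and Tnni3 the cardiac form that replaces it around and after birth, Actc1 is the cardiac actin, and Acta1 the skeletal actin that fetal rodent hearts also express.

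All 9 genes were above 0 in every one of the 10 libraries, and all 9 passed the filter on low values (a mean of 0.1 FPKM). Each library held from 16672876 to 19109844 reads assigned to genes. Markers of cardiomyocytes were abundant, with a summed level of 17996.3 to 19634.0 FPKM in CON and 15336.1 to 18500.4 FPKM in HG. Of the 12 markers, 9 were lower in HG and 1 higher (limma, adjusted p under 0.05). The higher one was Nppa (log2 fold change 0.71, adjusted p = 0.000797, limma). The lower ones ran from -1.03 (Myh6) to -0.27 (Myl3), and Myl4 (0.08) and Myl7 (-0.06) did not pass. Among all tested genes 11.8% were lower and 28.4% higher, and of those averaging 500 FPKM or more 36.4% were lower. The markers Myh6, Myh7, Myl2, Myl3, Myl4, Myl7, Mybpc3 and Ttn are also on the thick filament list below. In bulk tissue, fewer cardiomyocytes, less RNA per cardiomyocyte and changes of single genes cannot be told apart, and the part of each was not tested. Markers of red blood cells were lower in HG for 6 of 7 genes, against the same 11.8% (3553.4 to 5041.2 FPKM summed against 4372.1 to 9252.8 FPKM in CON). Liver markers summed to 80.4 FPKM in CON 3, 3.12 to 7.73 FPKM in the other CON libraries and 0.852 to 2.4 FPKM in HG, without overlap between groups.

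The 250 bases before the annotated gene start are shown for 4 genes on which the comparisons turn, the troponin I pair Tnni1 and Tnni3, the troponin T gene that rose and the skeletal actin. They are RefSeq sequence of GRCr8, a later rat build than the mRatBN7.2 that the submitters name, and 8 of the 9 genes had an entry. The windows lie at chr13:49781279-49781528 (plus strand), chr1:78342321-78342570 (plus strand), chr1:78348785-78349034 (plus strand) and chr19:68784195-68784444 (minus strand). Capitals mark the TATA box TATAAA, the MCAT motif CATTCC, which TEAD factors bind, and the CArG box, which serum response factor binds.
Tnni1: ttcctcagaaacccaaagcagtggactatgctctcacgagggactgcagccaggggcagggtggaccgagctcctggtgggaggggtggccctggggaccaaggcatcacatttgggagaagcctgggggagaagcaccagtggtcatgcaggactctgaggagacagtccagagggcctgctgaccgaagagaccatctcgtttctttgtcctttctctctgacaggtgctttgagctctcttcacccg
Tnni3: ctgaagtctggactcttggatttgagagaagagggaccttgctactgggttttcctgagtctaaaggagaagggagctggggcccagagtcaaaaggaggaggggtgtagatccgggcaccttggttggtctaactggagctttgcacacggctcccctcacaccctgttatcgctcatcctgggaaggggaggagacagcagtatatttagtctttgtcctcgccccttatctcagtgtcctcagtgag
Tnnt1: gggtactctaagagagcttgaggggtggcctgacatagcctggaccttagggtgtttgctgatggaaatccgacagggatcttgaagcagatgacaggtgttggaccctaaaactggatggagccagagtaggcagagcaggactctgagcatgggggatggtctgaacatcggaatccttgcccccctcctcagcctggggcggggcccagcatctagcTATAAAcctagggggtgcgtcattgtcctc
Acta1: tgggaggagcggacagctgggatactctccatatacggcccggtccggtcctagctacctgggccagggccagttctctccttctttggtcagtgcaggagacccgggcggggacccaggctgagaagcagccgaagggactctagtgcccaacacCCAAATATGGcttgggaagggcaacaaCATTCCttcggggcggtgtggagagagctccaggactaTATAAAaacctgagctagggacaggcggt

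Acta1 was the only one of the 8 windows with a CArG box, in bases 94 to 85 before the start, followed by a CATTCC at 67 and a TATAAA at 29. A CArG box was present in 1.5% of all 33469 windows of this length in the table. TATAAA, on either strand, was present in 3 of the 8 windows (Tnni2, Tnnt1 and Acta1) against 12.9% of all windows, and CATTCC in 3 (Tnnt2, Tpm1 and Acta1) against 12.1%. The adjacent genes Tnni3 and Tnnt1 shared none of the motifs searched. Tnni3 held GATA on the opposite strand at bases 81 and 21 and no TATAAA, whereas Tnnt1 held a TATAAA at base 30 and CANNTG (E-box) at bases 163 and 156. GATA was found in 4 of the 8 windows (55.9% of all) and CANNTG in 6 (65.5% of all). The MEF2 site was in none of the 8 (2.96% of all). No match overlapped a match of another motif in these windows. A match of letters describes the sequence and does not show that a factor was bound.

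**Figure D1:**
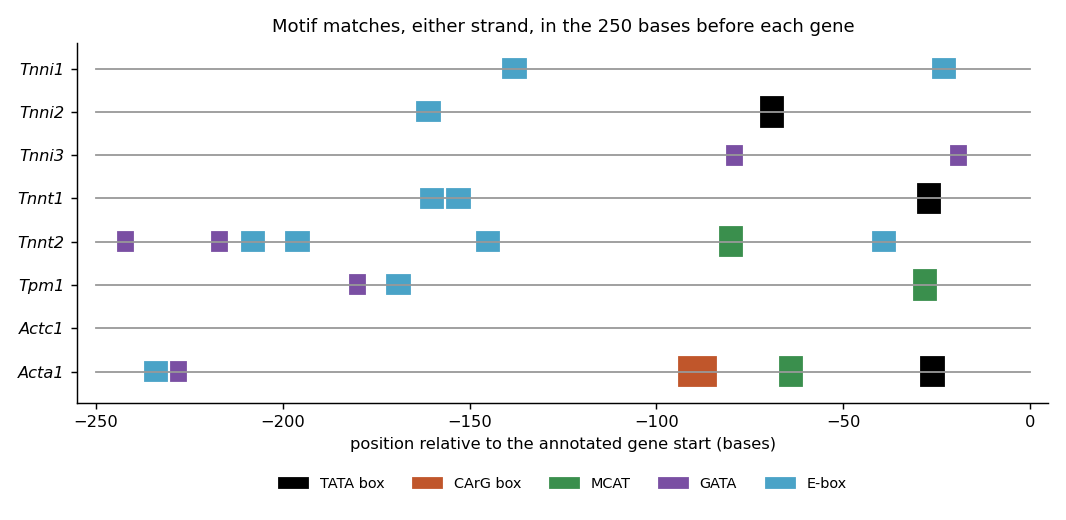
Matches of 5 motifs in the 250 bases before the annotated start of 8 genes (x axis, position relative to the start in bases, either strand). Acta1 alone carries a CArG box, and the Actc1 window holds none of these motifs.

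Of the 9 genes, 6 were lower in HG, 2 were higher and 1, Actc1, did not pass the test (limma, Benjamini-Hochberg adjusted p under 0.05 over all 14542 genes tested). Over all tested genes 40.1% passed, 11.8% lower and 28.4% higher. The background differed for abundant genes: of the 154 tested genes averaging 500 FPKM or more, 56 (36.4%) were lower and 29 higher, and 7 of the 9 genes, 6 of them called lower, were at that level. Fold changes are differences of mean log2(FPKM + 0.1). The median log2 fold change of the 9 genes was -0.18, against 0.09 over all tested genes. One of the 9, Tnni2, was past the study's threshold of a 2-fold change (absolute log2 fold change above 1), which 1.94% of all genes passed. In 7 of the 9 the groups did not overlap (27.4% of all genes), Tnni2 and Actc1 being the exceptions. Leaving out CON 3, the library with the highest liver markers, left 7 of the 9 called, with Tnni1 lost. The share of lower genes among all called depended on the scaling of the libraries, with 29.3% here, 52.9% when libraries were scaled by median-of-ratios factors and 47% when quantile normalized, and the median of all genes fell to 0.01 and 0.02. Under median-of-ratios factors 7 of the 9 genes were lower and 2 higher, where 2551 of all 14533 tested genes were lower and 2271 higher. After quantile normalization 3 of the 9 were lower and 2 higher, where 2317 of all 14542 were lower and 2615 higher. Together the 9 genes held 5.07 ± 0.144% of the FPKM of a CON library, against 4.48 ± 0.296% of an HG library (SD, n = 5 each), with ranges of 4.84 to 5.22% and 4.18 to 4.83% that did not overlap.

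**Figure D2:**
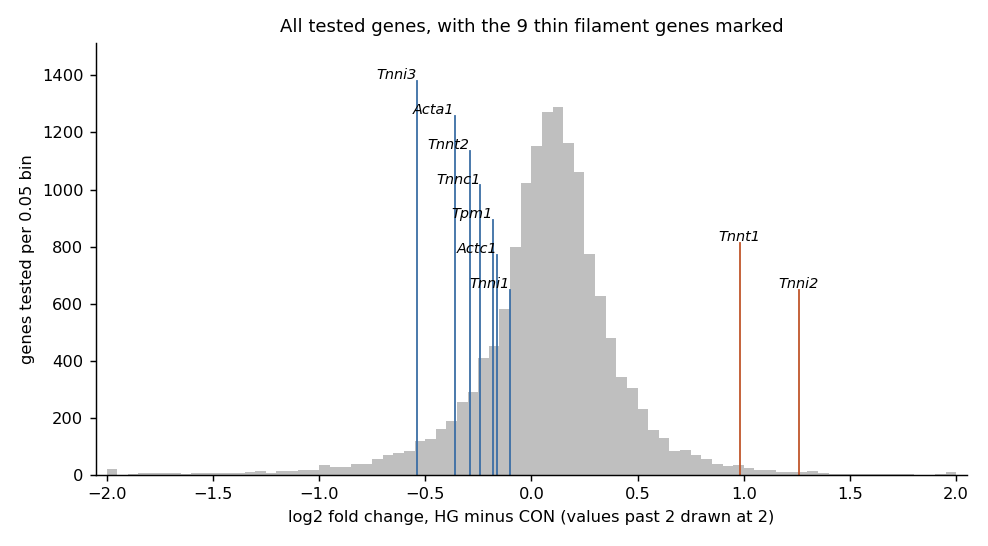
Histogram of the log2 fold change (HG minus CON, x axis) of the 14542 genes tested, in bins of 0.05 (y axis, genes per bin), with the 9 thin filament genes marked at their values. Tnni1, Actc1, Tpm1, Tnnc1, Tnnt2, Acta1 and Tnni3 lie to the left of 0 and Tnnt1 and Tnni2 to the right.

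Tnni3 (29248), which encodes the cardiac troponin I, showed the largest decrease of the 9. Its level in CON 1 to CON 5 was 1288.9, 1221.2, 1251.5, 1244.1 and 1298.2 FPKM, and in HG 1 to HG 5 it was 874.7, 771.3, 810.0, 1008.3 and 891.7 FPKM. Every HG library was below every CON library, with HG 4 the nearest to CON and HG 2 the furthest. The mean fell from 1260.8 ± 32.1 to 871.2 ± 90.8 FPKM (SD, n = 5 each), 68.8% of CON, with a log2 fold change of -0.54 (SE 0.0623, 95% interval -0.67 to -0.40, adjusted p = 4.89e-05, limma). Between 14323 and 23797 reads lay behind each value. The call was made under all 22 alternative settings, with log2 fold changes of -0.63 to -0.48.

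Tnni1 (29388), the slow skeletal troponin I, changed far less. It stood at 1730.0, 1723.8, 1789.0, 1770.0 and 1663.1 FPKM in CON 1 to CON 5 and at 1618.5, 1660.1, 1577.5, 1650.1 and 1593.3 FPKM in HG 1 to HG 5. The groups met without overlapping, CON 5 and HG 2 being the nearest pair. Means were 1735.2 ± 48.6 and 1619.9 ± 35.5 FPKM (SD, n = 5 each), a log2 fold change of -0.10 (SE 0.0368, 95% interval -0.18 to -0.02, adjusted p = 0.0483, limma). This call was lost under 15 of 22 alternatives, among them every omission of a single library but CON 5 (adjusted p up to 0.118) and quantile normalization (-0.04, adjusted p = 0.402).

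The ratio of Tnni1 to Tnni3 within a library, which does not depend on how libraries are scaled, was higher in HG. It was 1.34, 1.41, 1.43, 1.42 and 1.28 in CON 1 to CON 5 and 1.85, 2.15, 1.95, 1.64 and 1.79 in HG 1 to HG 5. No HG library reached down to the CON range, and HG 2 was the highest. The ratio averaged 1.38 ± 0.0641 for CON against 1.87 ± 0.192 for HG (SD, n = 5 each), a log2 difference of 0.44 with a 95% interval of 0.27 to 0.60 (two-sided exact permutation test, p = 0.00794, the smallest that 5 against 5 allow, and 0.0185 adjusted over 7 ratios). Of the troponin I FPKM, Tnni1 made up 57.9 ± 1.15% in CON against 65 ± 2.31% in HG, and Tnni3 made up 42.1 ± 1.16% against 34.9 ± 2.3%. Both genes were lower in HG, Tnni3 by more, so the higher ratio did not come with a higher level of Tnni1.

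Tnni2 (29389), the fast skeletal troponin I, was a trace transcript here. It was at 0.732, 0.404, 1.42, 0.647 and 0.416 FPKM in CON 1 to CON 5 and at 1.00, 0.881, 2.21, 2.17 and 3.27 FPKM in HG 1 to HG 5, from 5 to 37 reads a library. HG 3, HG 4 and HG 5 were above every CON library, while HG 1 and HG 2 lay below CON 3. The log2 fold change was 1.26 (SE 0.37, 95% interval 0.45 to 2.06, adjusted p = 0.0174, limma), from 0.723 ± 0.414 to 1.90 ± 0.985 FPKM (SD, n = 5 each). Without HG 3 and HG 5 it was 0.84 and no longer passed (adjusted p = 0.125). In the RefSeq annotation of GRCr8 the span of Tnni2 overlaps 5 other genes, Ctsd among them, so its few reads are uncertain in origin.

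Beside Tnni2, skeletal muscle markers were given by their whole list. Of 17 such markers 16 were in the table and 10 were tested, of which 2 were higher in HG and 0 lower, where 28.4% of all tested genes were higher. The 2 were Mylpf, the fast skeletal regulatory light chain (0.753 ± 0.21 to 1.64 ± 0.582 FPKM, log2 fold change 0.99, adjusted p = 0.0108), and Myog, a muscle transcription factor (0.278 ± 0.108 to 0.54 ± 0.181 FPKM, 0.76, adjusted p = 0.0237; limma, SD, n = 5 each). The summed level of the list was 49.9 to 67.2 FPKM in CON and 51.4 to 76.5 FPKM in HG, most of it Casq1. The adult and perinatal skeletal myosins Myh1, Myh2, Myh4 and Myh8 did not exceed 0.0608 FPKM in any library. Myh3, the embryonic skeletal myosin on the same list, was present in every library and no lower than 1.77 FPKM. Its mean went from 3.12 ± 1.21 to 4.34 ± 0.777 FPKM (SD, n = 5 each), which did not pass (log2 fold change 0.53, adjusted p = 0.08, limma). The other tested markers did not pass either and went both ways. Log2 fold changes were positive for Mybpc1 (0.75), Cacna1s (0.29) and Casq1 (0.17). They were negative for Tnnc2 (-0.67), Mybpc2 (-0.25), Tnnt3 (-0.13) and Ryr1 (-0.09). The part of skeletal muscle tissue in the level of Tnni2 was not tested.

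Tnnt2 (24837), the cardiac troponin T and second most abundant of the 9 genes, was lower in HG. It stood at 3880.7, 3901.0, 3873.9, 4051.3 and 4058.3 FPKM in CON 1 to CON 5 and at 3168.5, 3092.7, 3111.1, 3366.1 and 3491.0 FPKM in HG 1 to HG 5. The groups did not overlap, and HG 5 was the highest of its group. From 3953.0 ± 93.5 to 3245.9 ± 174.8 FPKM (SD, n = 5 each), the log2 fold change was -0.29 (SE 0.0472, 95% interval -0.39 to -0.18, adjusted p = 0.00056, limma). Of 22 alternatives only quantile normalization ended the call (-0.08, adjusted p = 0.574). That method sets each value by its rank within the library, which limits how far genes at the very top ranks can differ. Its part in the lost call was not tested, and Tnni3 was still lower under it (-0.48, adjusted p = 0.000136, limma).

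Tnnt1 (171409), the slow skeletal troponin T, rose from a low level. Its values were 4.74, 4.47, 3.84, 3.14 and 3.95 FPKM in CON 1 to CON 5 and 7.92, 6.97, 6.10, 11.5 and 8.32 FPKM in HG 1 to HG 5, from 54 to 81 reads in CON and 100 to 192 in HG. All HG libraries were above all CON libraries, with HG 4 the highest. The mean rose from 4.03 ± 0.617 to 8.17 ± 2.06 FPKM (SD, n = 5 each), a log2 fold change of 0.98 (SE 0.153, 95% interval 0.65 to 1.32, adjusted p = 0.000378, limma), just under the 2-fold threshold. It was called under all 22 alternatives (0.85 to 1.09). The ratio of Tnnt1 to Tnnt2 went from 0.00102 ± 0.000172 to 0.0025 ± 0.00055 (SD, n = 5 each), a log2 difference of 1.29 with a 95% interval of 0.91 to 1.71 (two-sided exact permutation test, p = 0.00794, adjusted over the 7 ratios 0.0185). Even so, Tnnt1 made up 0.25 ± 0.0547% of the 2 troponin T genes in HG (0.102 ± 0.0172% in CON). Tnni2 to Tnni3, the ratio of fast skeletal to cardiac troponin I, was barely apart between groups, at 0.00032 to 0.00113 in CON and 0.00114 to 0.00366 in HG. Its log2 difference was 1.93 (95% interval 0.92 to 3.03, exact permutation p = 0.00794, adjusted 0.0185). The libraries nearest the gap, CON 3, HG 1 and HG 2, held 17, 13 and 11 reads of Tnni2.

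Tnnc1 (290561), which encodes the calcium-binding troponin C of cardiac and slow skeletal muscle, was lower in HG. Its level was 2300.7, 2194.4, 2223.9, 2150.1 and 2255.1 FPKM in CON 1 to CON 5 and 1918.7, 1850.7, 1813.5, 1988.6 and 1832.6 FPKM in HG 1 to HG 5, with no overlap. The log2 fold change was -0.24 (SE 0.0406, adjusted p = 0.000604, limma), from 2224.8 ± 57.4 to 1880.8 ± 72.1 FPKM (SD, n = 5 each). Tpm1 (24851), the main striated tropomyosin, stood at 1165.3, 1177.1, 1169.8, 1100.1 and 1161.0 FPKM in CON 1 to CON 5 and at 1050.9, 999.1, 972.2, 1069.7 and 990.5 FPKM in HG 1 to HG 5, again with no overlap. It fell from 1154.7 ± 31.1 to 1016.5 ± 41.7 FPKM (SD, n = 5 each; log2 fold change -0.18, SE 0.0392, adjusted p = 0.00277, limma). Both genes were called under all 22 alternatives, Tnnc1 with -0.33 to -0.10 and Tpm1 with -0.28 to -0.12, the smallest of each after quantile normalization (adjusted p = 0.0485 and 0.0238, limma).

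Actc1 (29275), the cardiac actin and the most abundant of the 9 genes, did not pass the test. It was at 11389.8, 10402.6, 10993.7, 10710.9 and 11055.7 FPKM in CON 1 to CON 5 and at 11010.0, 10165.2, 9056.1, 10480.0 and 8395.0 FPKM in HG 1 to HG 5. HG 1 and HG 4 lay within the CON range and HG 3 and HG 5 were well below it. Means were 10910.5 ± 372.7 and 9821.3 ± 1070.7 FPKM (SD, n = 5 each), a log2 fold change of -0.16 (SE 0.0752, 95% interval -0.32 to 0.01, adjusted p = 0.114, limma). It was called with median-of-ratios factors (-0.25, adjusted p = 0.0463) and with voom on recovered reads (-0.16, adjusted p = 0.046).

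Acta1 (29437), the skeletal actin, was lower in HG without overlap. Its level was 2223.7, 2288.5, 2537.5, 2428.0 and 2331.4 FPKM in CON 1 to CON 5 and 2165.2, 2024.4, 1592.5, 2026.1 and 1477.4 FPKM in HG 1 to HG 5. HG 3 and HG 5 were the lowest, as for Actc1. These 2 libraries also had the highest median-of-ratios factors, 1.047 and 1.06, against 1.015 to 1.03 in the other HG libraries, and the part of this in the actin levels was not tested. The mean fell from 2361.8 ± 123.1 to 1857.1 ± 302.3 FPKM (SD, n = 5 each; log2 fold change -0.36, SE 0.0975, 95% interval -0.57 to -0.15, adjusted p = 0.011, limma), a call lost only after quantile normalization (-0.21, adjusted p = 0.12). Without HG 3 and HG 5 the log2 fold change of Acta1 was -0.19 (adjusted p = 0.0241) and that of Actc1 -0.05 (adjusted p = 0.555, limma). The coding sequences of the actins are nearly identical, and how reads shared between them were counted is not given in the sources used here, so their split is uncertain.

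The ratio of Acta1 to Actc1 was 0.195, 0.22, 0.231, 0.227 and 0.211 in CON 1 to CON 5 and 0.197, 0.199, 0.176, 0.193 and 0.176 in HG 1 to HG 5. The groups overlapped through CON 1, which lay below HG 1 and HG 2. The mean went from 0.217 ± 0.0142 to 0.188 ± 0.0114 (SD, n = 5 each), a log2 difference of -0.20 with a 95% interval of -0.36 to -0.06 (two-sided exact permutation test, p = 0.0238, adjusted over the 7 ratios 0.0417). The adjusted p rose above 0.05 when CON 2, CON 3, CON 4, HG 3, HG 4 or HG 5 was left out (0.0556 to 0.0694). Acta1 supplied 17.8 ± 0.964% of the FPKM of these 2 actin genes in CON and 15.8 ± 0.809% in HG.

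**Figure D3:**
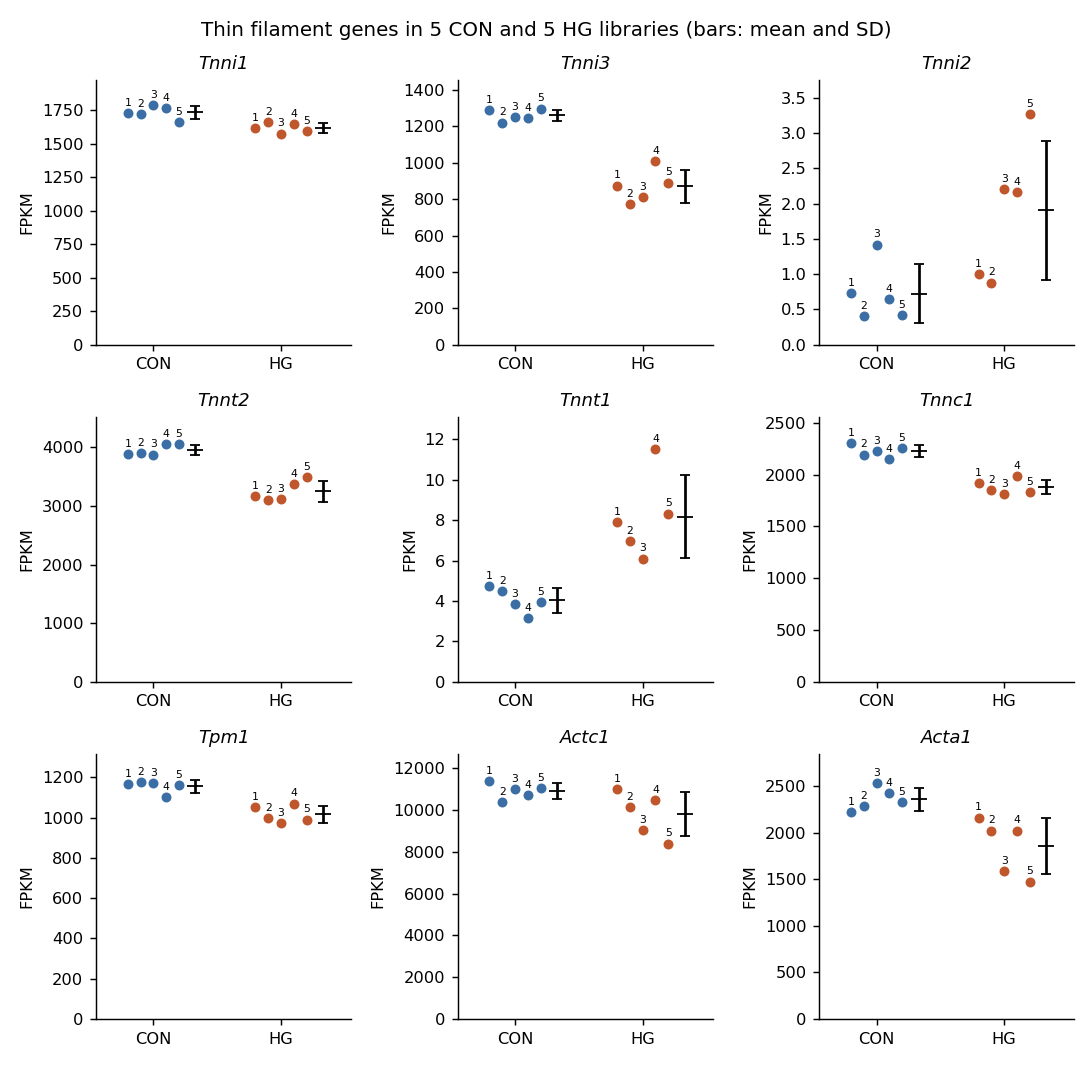
FPKM (y axis, from 0) of the 9 genes in the 5 CON (blue) and 5 HG (orange) libraries, numbered by replicate, with mean and SD in black. In the 6 genes called lower the points are apart, most widely in Tnni3, and in Actc1 and Tnni2 they overlap.

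Ratios between different subunits of the filament did not pass the test. Troponin C to troponin T, as Tnnc1 to Tnnt2, averaged 0.563 ± 0.023 for CON against 0.581 ± 0.0322 for HG (SD, n = 5 each), a log2 difference of 0.04 with a 95% interval of -0.07 to 0.14 (two-sided exact permutation p = 0.373, adjusted 0.522). Summed troponin I to summed troponin T was 0.758 ± 0.023 and 0.767 ± 0.0324 (difference 0.02, 95% interval -0.06 to 0.09, exact permutation p = 0.611, adjusted 0.69). Tpm1 to Actc1 was 0.106 ± 0.00438 and 0.104 ± 0.00889 (difference -0.03, 95% interval -0.15 to 0.12, exact permutation p = 0.69, adjusted 0.69). None of these 3 differed beyond the spread of the libraries. Their intervals also allow shifts larger than those given, up to 0.14 for Tnnc1 to Tnnt2 and down to -0.15 for Tpm1 to Actc1.

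**Figure D4:**
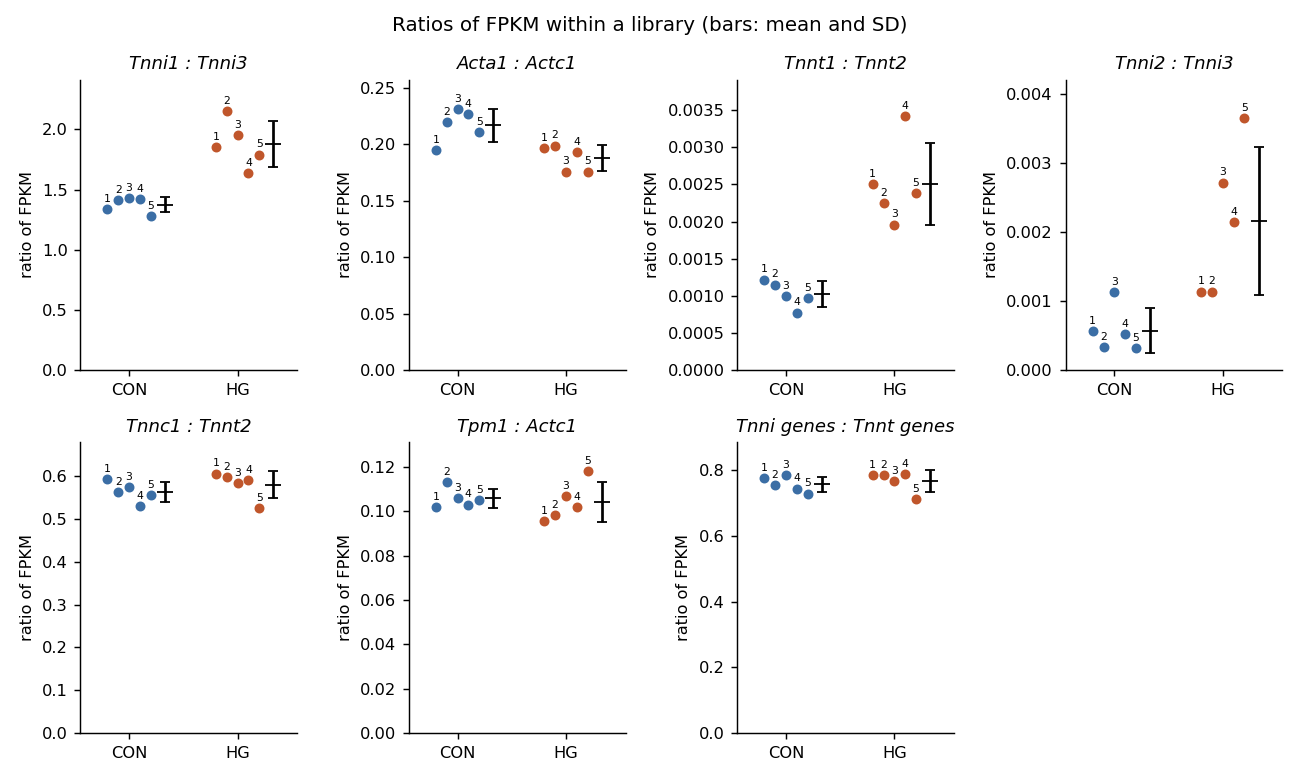
The 7 ratios of FPKM within a library (y axis, from 0), for 5 CON (blue) and 5 HG (orange) libraries numbered by replicate, with mean and SD in black. The groups are apart in Tnni1 to Tnni3 and Tnnt1 to Tnnt2 and barely so in Tnni2 to Tnni3 (0.00113 against 0.00114), and overlap in the other 4.

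In CON the order of levels, in FPKM, ran from Actc1 through Tnnt2, Acta1, Tnnc1, Tnni1, Tnni3 and Tpm1 to Tnnt1 and Tnni2, with a 286.7-fold step between Tpm1 and Tnnt1. Acta1 and Tnnc1 were the only neighbours whose ranges overlapped there. In HG, Tnnc1, Acta1 and Tnni1 followed Tnnt2, with overlapping ranges between neighbours, and Tpm1 stood above Tnni3 in 5 of 5 libraries although their ranges overlapped. In CON it was Tnni3 that stood above Tpm1 in 5 of 5. HG libraries varied more among themselves in the actins and Tnni3, with a coefficient of variation of 10.9% for Actc1, 16.3% for Acta1 and 10.4% for Tnni3, against 3.42%, 5.21% and 2.55% in CON.

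The wider thin filament was read from a list of 26 other genes, of which 25 were tested. Of these 6 were higher in HG, 8 lower and 11 did not pass, with a median log2 fold change of -0.08, where 28.4% of all tested genes were higher and 11.8% lower. Under median-of-ratios factors 3 were higher and 10 lower (median -0.18), where 2271 of all 14533 tested genes were higher and 2551 lower. After quantile normalization 5 were higher and 8 lower (median -0.06), where 2615 of all 14542 were higher and 2317 lower. Tpm3, which encodes slow skeletal and non-muscle tropomyosins, rose by 0.70 on the log2 scale (32 ± 1.17 to 52.2 ± 4.7 FPKM, adjusted p = 4.12e-06), and the non-muscle tropomyosin gene Tpm4 rose from 305.4 ± 2.1 to 432.2 ± 29.2 FPKM (0.50, adjusted p = 7.00e-06). Lmod3, a leiomodin that nucleates actin at pointed ends, fell from 3.62 ± 0.558 to 1.35 ± 0.339 FPKM (-1.38, SE 0.153, adjusted p = 3.67e-05) and alone passed the 2-fold threshold. Nrap, which takes part in early myofibril assembly, fell from 47.5 ± 3.46 to 29.1 ± 2.52 FPKM (-0.71, adjusted p = 9.97e-06), and the formin Fhod3 from 67.7 ± 0.817 to 54 ± 1.61 FPKM (-0.33, adjusted p = 1.22e-05; limma, SD, n = 5 each). Tpm3, Tpm4, Lmod3, Nrap and Fhod3 kept their direction and call under each scaling tried. The fast skeletal troponins Tnnt3 (-0.13, adjusted p = 0.627) and Tnnc2 (-0.67, adjusted p = 0.414) did not pass.

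The thick filament, which pulls on these thin filaments, showed 6 of 10 listed genes lower, 1 higher and 3 not called (median log2 fold change -0.29). Among all tested genes 11.8% were lower and 28.4% higher, and of those at 500 FPKM or more 36.4% were lower. After quantile normalization 4 of the 10 were lower and 1 higher (median -0.07), where 2317 of all 14542 tested genes were lower and 2615 higher. The α-myosin gene Myh6 had a log2 fold change of -1.03 (431.8 ± 40.6 to 211.1 ± 20.7 FPKM, adjusted p = 1.97e-06) and the β-myosin gene Myh7 one of -0.31 (2639.6 ± 106.4 to 2125.7 ± 146.7 FPKM, adjusted p = 0.000751; limma, SD, n = 5 each). The decrease of Myh6 was thus larger than that of any of the 9 thin filament genes, a comparison between genes for which no test was run.

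Of 16 regulators known at sarcomeric promoters, 2 were higher, 3 lower and 11 did not pass (median 0.00). Among all tested genes 40.1% passed, 28.4% higher and 11.8% lower. Median-of-ratios factors and quantile normalization each gave 1 regulator higher and 5 lower (medians -0.09 and -0.07). The whole table gave 2271 of 14533 genes higher and 2551 lower with the factors, and 2615 of 14542 higher and 2317 lower after quantile normalization. Gata4 rose by 0.26 on the log2 scale (85.2 ± 3.02 to 102.2 ± 4.19 FPKM, adjusted p = 0.000214) and Gata6 fell from 70.7 ± 2.11 to 57 ± 1.08 FPKM (-0.31, adjusted p = 2.17e-05). Mef2d had -0.14 (adjusted p = 0.0272) and Tbx5 0.28 (adjusted p = 0.0316), which did not pass with median-of-ratios factors (adjusted p = 0.14) or after quantile normalization (0.145; limma throughout).

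**Figure D5:**
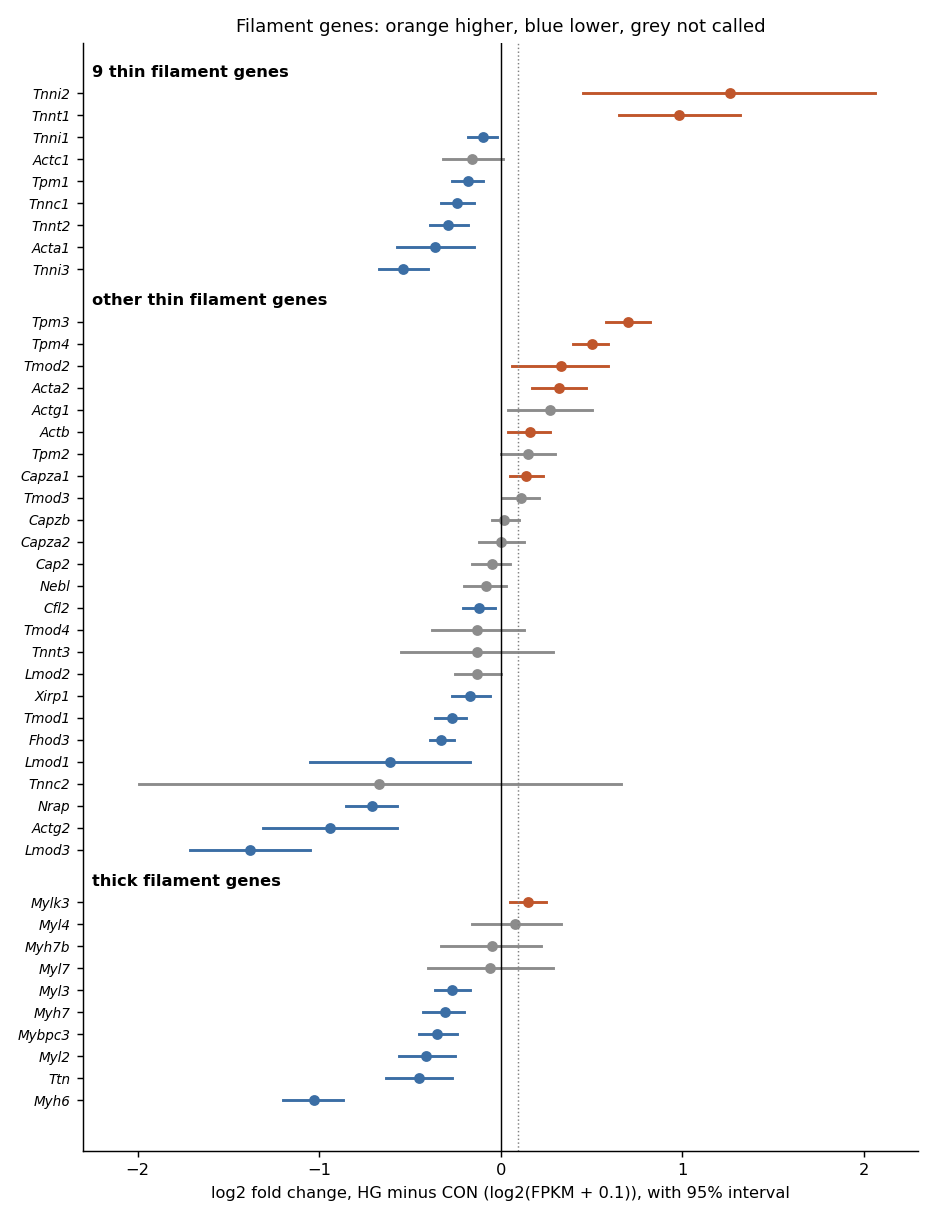
Log2 fold change (HG minus CON, x axis) with 95% interval for the 9 genes, 25 other thin filament genes and 10 thick filament genes, orange for higher, blue for lower and grey for not called, with a dotted line at the median of all genes (0.09). Tnni2 and Tnnt1 lie to the right of the group and Tnni3 at its left end.

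Across the 10 libraries the genes whose levels ran most like Tnni3, among 11708 genes above a mean of 1 FPKM, were Uqcc1 (r = 0.986), an assembly factor of the respiratory chain, Fabp4 (0.984), a fatty acid binding protein, and Myom1 (0.979), a protein of the M band. These correlations of log2 levels are over libraries of both groups, so the group difference itself contributes to them, and 337 genes had r above 0.9. For Tnni1 the closest were Rtn4rl1 (0.969), Tapbp (0.952) and Gpd1l (0.949), and for Acta1 they were Tomm40 (0.968), Pigq (0.960) and Emc6 (0.945). Fabp4 went from 167.8 to 104.5 FPKM and Uqcc1 from 46 to 36.4 FPKM.

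In the RefSeq order of genes, Tnni3 and Tnnt1 are neighbours on chromosome 1, and their log2 fold changes were opposite, -0.54 and 0.98. On chromosome 13 Tnni1 and Tnnt2 are separated by a single protein-coding gene, Lad1, which rose by 1.37 on the log2 scale (0.387 to 1.23 FPKM, adjusted p = 0.000755, limma) between 2 genes that were lower. In that annotation no other gene overlaps the spans of Tnni1, Tnni3, Tnnt1 or Tnnt2.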

How the data were processed

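Fetal heart libraries (5 CON, 5 HG) were grouped by their GEO titles. The authors deposited FPKM per gene, read numbers divided by gene length and library size. The submitters' processing notes name fastp, HISAT2, HTSeq, R 3.2.0 and mRatBN7.2, without roles. Strand settings and the treatment of shared reads are not given in the sources used here. The methods speak of pooled RNA and a legend of isolated cardiomyocytes, whereas the labels say heart tissue and the libraries differ. Each value was a whole multiple of 1 read in 100% of the genes (tolerance 0.05 read), so reads were recovered, 16672876 to 19109844 per library. Of all sample columns 0 were unused.

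Genes averaging 0.1 FPKM or more (14542 tested, 3483 below) were compared as log2(FPKM + 0.1), which understates changes of low genes, with limma 3.58.1 in R 4.3.3 (trend on expression, no covariate, Benjamini-Hochberg). The count-based package of the study was not run, since the deposited unit is FPKM, and voom on the recovered reads was an alternative. For the 7 ratios, two-sided exact permutation tests were run, with intervals by inversion of the test. Python 3.11.15, numpy 2.4.6, pandas 2.3.3, scipy 1.17.1 and matplotlib 3.10.9 were used, and scripts were tested on simulated data. The 9 genes, the lists and the motifs were chosen with earlier results of these data known. Outside the 9, genes were named by rule: of the other thin filament genes those past 2-fold and the 4 next smallest adjusted p, the 4 smallest among regulators, Myh6 and Myh7, and the 3 closest correlates each of Tnni1, Tnni3 and Acta1. Tnnt3, Tnnc2, Mylpf, Myog, Casq1, Cacna1s, Mybpc1, Mybpc2, Ryr1, Nppa, Myl3, Myl4, Myl7, Lad1 and the skeletal myosins were named after their values were seen. Of the other marker lists, smooth muscle had 3 of 7 genes higher and 2 lower, fibroblast 2 and 3 of 7, endothelium 1 and 0 of 6, macrophage 2 and 1 of 6, liver 0 and 5 of 6, and of 2 lung markers listed 0 were tested. The shares over all tested genes were 28.4% higher and 11.8% lower.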

Additional observations from a re-analysis of the deposited data

Results flagged for a closer look

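Of the 32 groups of 5 libraries examined for a value standing apart from the rest, 3 had one, and chance gives about 1 in 20. Tpm1 in CON 4, at 1100.1 FPKM, lay below the other CON libraries by 0.792 of the range of the group. HG 5 had the lowest Tnnc1 to Tnnt2 ratio of its group, 0.525 (gap 0.719 of the range), and the lowest ratio of summed troponin I to summed troponin T genes, 0.711 (gap 0.725 of the range). Both ratios divide by Tnnt2, which was highest in HG 5 among the HG libraries (3491.0 FPKM).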

How the results depend on the processing

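Of 296 tested values recomputed for 16 results under alternative settings, 261 kept their direction and their side of the threshold. Of 44 recomputed counts of calls, 43 stayed within 1.5 times the count given, and the 7 ratios of group sums, which have no test, moved by less than the SD between libraries. After quantile normalization 5 of the 9 genes were called, against 4932 of all 14542 tested. Actc1 ranked first in every library, so that its difference there is 0 by construction. Genes called over the whole table ranged from 4410 to 6001, with 5960 by voom on recovered reads. With the replicate number as a replicate block, tested by sign flips, the log2 differences of Tnni1 to Tnni3 (0.44), Acta1 to Actc1 (-0.20), Tnnt1 to Tnnt2 (1.29) and Tnni2 to Tnni3 (1.93) had adjusted p of 0.146, 0.219, 0.146 and 0.146, and no p under 0.0625 is possible there before adjustment. Same-numbered libraries did not deviate together (correlations -0.126 to 0.108), and the block left 7 of the 9 genes called. With HG 3 and HG 5 both left out, chosen after seeing the data, these ratios were 0.44, -0.14, 1.41 and 1.46, with adjusted p of 0.0625, 0.0893, 0.0625 and 0.075 from 5 libraries against 3, and 6 of the 9 genes were called. The ratios between different subunits moved further from 0 in that setting. They were 0.09 for Tnnc1 to Tnnt2, -0.10 for Tpm1 to Actc1 and 0.05 for summed troponin I to summed troponin T. Their adjusted p were 0.0833, 0.075 and 0.075 (exact permutation test). A permutation of 5 against 3 has fewer arrangements than 5 against 5, so the smallest possible p is larger there. With only HG 5 left out, Tnnc1 to Tnnt2 was 0.08 (adjusted p = 0.0556, exact permutation test). With each library left out in turn, Acta1 to Actc1 ranged from -0.24 to -0.18 and Tpm1 to Actc1 from -0.07 to 0.00, changing sign without HG 1, and the number of the 9 genes called from 7 to 8. Tnni2 and Tnnt1 rest on few reads, at most 37 and 192 a library.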
